A study of Mus musculus with 9 samples.

Results

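The comparison described here set leukemia cells from mice treated with arsenic trioxide (ATO) against leukemia cells from untreated mice, and its members were the 3 ATO and the 3 control libraries among the 9 RNA sequencing libraries of the study. All 6 came from the same acute promyelocytic leukemia (APL) model. Bone marrow leukemia cells of hMRP8-PML/RARα transgenic mice on the FVB/NJ background, in which a promoter active in myeloid cells drives the PML/RARα fusion gene, had been marked with GFP by the retroviral vector MigR1 and transplanted into syngeneic recipients. Once leukemia was overt, recipients were injected with 4 mg/kg ATO daily for 6 days or were left untreated, and GFP+ bone marrow cells were sorted for polyA RNA sequencing. Whether the controls received solvent is not stated, so injection and drug cannot be told apart, and nothing in the labels ties a library to its own mouse, so the p-values below cover the spread between these samples alone, which may be technical.

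PML/RARα fuses PML, the organizing protein of nuclear bodies, to the retinoic acid receptor α, and holds myeloid cells at the promyelocyte stage, the stage at which azurophil granules are made. Arsenic binds cysteine residues of PML and leads to loss of the fusion protein. Trivalent arsenic also binds vicinal thiols of many other proteins, and cells answer misfolded or thiol-bound protein through heat shock factors, through the transcription factor ATF4, which controls amino acid and stress genes, and through NRF2, which controls antioxidant genes.

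Reads on genes numbered 12192491 to 25511738 per library (16542370, 25511738 and 12192491 in ATO 1, 2 and 3, and 17529630, 15822998 and 17026453 in controls 1, 2 and 3). Of 24364 named genes, 11903 reached a scaled count of at least 10 in at least 3 of the 6 libraries and were tested. A scaled count is the number of reads divided by a size factor of its library, and a gene is called when its adjusted p in limma, adjusted over all tested genes by the Benjamini-Hochberg method, is under 0.05 and its fold change over 1.5. On the first principal component (62.7% of the variance) the ATO libraries lay at 31.8, 38.5 and 64.3 and the controls at -31.6, -51.5 and -51.6. Libraries of a group correlated at 0.972 to 0.988 within ATO and at 0.952 to 0.983 within controls, against 0.908 to 0.956 between them. Some libraries stood apart within their group. ATO 3 had relatively fewer counts of long transcripts and control 2 relatively more (described in the last part), and control 2 held the most counts of specific granule genes and the fewest of the myeloperoxidase gene Mpo among the controls.

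Lower calls outnumbered higher calls. With ATO 358 genes rose (3.01% of those tested) and 751 fell (6.31%), together 9.32%. The falls were also larger, with 342 of them over 4-fold against 29 of the rises. Genes that fell were weakly expressed, at a median of 30.2 scaled counts with ATO and 129 in controls, whereas genes that rose had a median of 1029 with ATO and 515 in controls. All 3 ATO libraries lay above all 3 controls for 16.4% of tested genes and below them for 16%. Among the calls the groups did not overlap in 354 of the 358 rises and 748 of the 751 falls. Groups that lie apart in a called gene are thus no support beyond the call itself. Of the tested genes, 257 passed the filter on low values through the controls alone and 36 through the ATO libraries alone. Those had to differ, and 215 and 14 of them were called. Where a reported list holds such genes, the text gives their number among its calls or the counts without them.

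The number of calls depended on single libraries. With 1 library left out, rises numbered 445 without ATO 1, 80 without ATO 2, 110 without ATO 3, 932 without control 1, 477 without control 2 and 74 without control 3. The falls numbered 855, 513 and 475 without ATO 1, 2 and 3, and 1344, 880 and 318 without controls 1, 2 and 3. Calls that were made in all 6 of these fits and also after removal of transcript length and GC trends are named lasting calls here. A gene without a known transcript length could not be a lasting call. They comprised 61 rises (0.512% of genes tested) and 304 falls (2.55%), and the text leads with them.

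**Figure D1:**
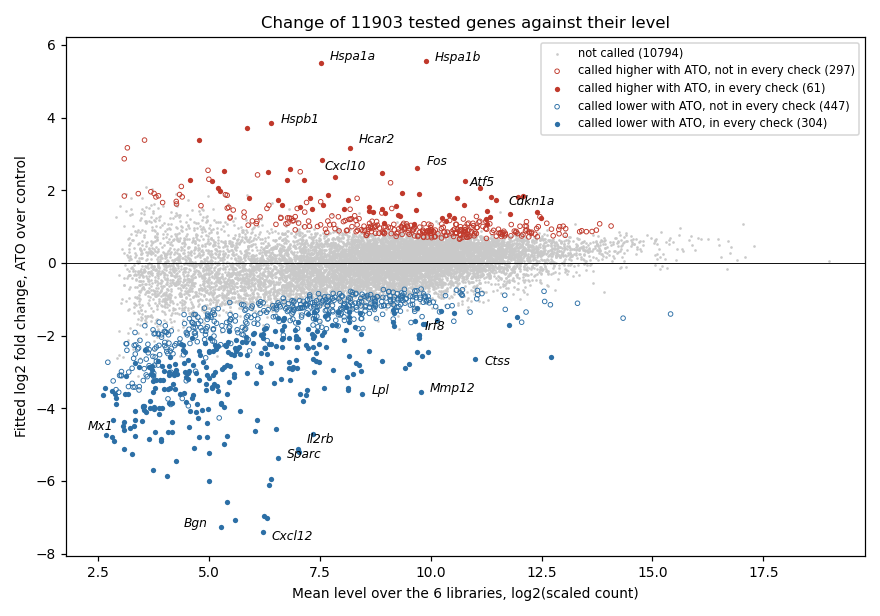
Fitted log2 fold change (ATO over control) of each of the 11903 tested genes against its mean level in log2 scaled counts. Filled red and blue points are the 61 lasting rises and 304 lasting falls, called in every fit with 1 library left out and with the length and GC trend removed, open points are the other calls, and the largest falls lie among weakly expressed genes.

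Heat shock chaperone genes gave the largest rises. These genes encode chaperones and cochaperones that refold or hold damaged protein. Hspa1b, an inducible HSP70 gene (mm9, chromosome 17, 35093381 to 35096183), had 2069, 1651 and 1856 in the ATO libraries, against 37.1, 50.7 and 30.8 in the controls (log2 fold change 5.56, SE 0.25, adjusted p = 2.02e-07). The neighboring Hspa1a (mm9, chromosome 17, 35106144 to 35109069) had 404, 325 and 352 in the ATO libraries, against 9.5, 9.94 and 4.4 in the controls (log2 fold change 5.49). Each gene's ATO libraries lay close together. Those of Hspa1b lay far above its controls, and Hspa1a passed the filter on low values through the ATO libraries alone, so it had to differ. The genes are near copies, with 62.1% of the 50-base stretches of the Hspa1b transcript also present in Hspa1a, and since only uniquely aligned reads were counted, the level of each copy is uncertain.

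Small and large chaperone genes joined them. Hspb1, the small heat shock protein HSP27, had 164, 71.4 and 236 in the ATO libraries, against 24.7, 3.98 and 7.92 in the controls (log2 fold change 3.84, SE 0.59, adjusted p = 0.00191), with every ATO library above every control. Hsph1, an HSP110 that releases nucleotide from HSP70, had 3522, 2707 and 2178 in the ATO libraries, against 353, 1333 and 407 in the controls (log2 fold change 2.25, SE 0.40, adjusted p = 0.00449), and control 2 lay above the other controls. Hspe1, the mitochondrial cochaperonin HSP10, had 2975, 2931 and 4227 in the ATO libraries, against 1744, 1335 and 1268 in the controls (log2 fold change 1.21, SE 0.22, adjusted p = 0.00454). All 5 were lasting calls. Of 22 tested members of the list 12 rose, with a median log2 fold change of 0.77, against 0.0045 over all genes tested. The others that rose were Dnajb1, Hspd1, Hsp90aa1, Stip1, Fkbp4, Ahsa1 and Hsf1. Hspa1a passed the filter on low values through the ATO libraries alone, and among the other 21 members 11 rose (median 0.75). The count over all 22 was 5 without control 3, 6 without ATO 2, 7 without ATO 3 and 11 with the length and GC trend removed.

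The stretch before the start of 4 of these genes is shown because it holds the heat shock element, the sequence bound by heat shock factors. Each run is the 250 bases upstream of the RefSeq start on the gene's strand, and the capitals mark every match to GAANNTTC or TTCNNGAA, each of which reads the same on both strands.
Hspa1b: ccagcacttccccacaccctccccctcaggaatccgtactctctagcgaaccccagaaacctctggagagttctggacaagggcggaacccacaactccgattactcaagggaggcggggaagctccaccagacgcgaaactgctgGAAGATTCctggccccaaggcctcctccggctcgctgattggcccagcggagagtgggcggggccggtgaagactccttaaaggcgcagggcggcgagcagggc
Hspa1a: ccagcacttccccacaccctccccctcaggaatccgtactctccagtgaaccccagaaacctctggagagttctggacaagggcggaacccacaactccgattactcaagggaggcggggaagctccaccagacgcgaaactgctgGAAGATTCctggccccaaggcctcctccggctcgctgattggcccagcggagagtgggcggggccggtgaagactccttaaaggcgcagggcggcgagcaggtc
Hspb1: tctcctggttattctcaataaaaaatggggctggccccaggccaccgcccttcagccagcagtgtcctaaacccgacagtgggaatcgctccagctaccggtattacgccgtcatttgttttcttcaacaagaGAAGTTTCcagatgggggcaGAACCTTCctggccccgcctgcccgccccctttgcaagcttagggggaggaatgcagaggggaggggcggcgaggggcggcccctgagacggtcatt
Hspe1: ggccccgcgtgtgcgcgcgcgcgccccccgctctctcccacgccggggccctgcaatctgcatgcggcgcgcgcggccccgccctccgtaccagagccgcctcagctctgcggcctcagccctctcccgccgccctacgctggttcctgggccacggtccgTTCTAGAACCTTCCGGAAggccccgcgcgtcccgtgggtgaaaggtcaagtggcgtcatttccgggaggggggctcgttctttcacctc

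These stretches, taken from the RefSeq promoter table of build GRCm38.p6, matched mm9 exactly once each, at chromosome 17, 35096184 to 35096433 (Hspa1b, minus strand), chromosome 17, 35109102 to 35109351 (Hspa1a, minus strand), chromosome 5, 136363539 to 136363788 (Hspb1, plus strand) and chromosome 1, 55144742 to 55144991 (Hspe1, plus strand). The Hspa1b and Hspa1a stretches differ at 3 of 250 positions, and both hold 1 match that begins 104 bases before the start. Hspb1 holds 2 matches, which begin 97 and 117 bases before the start, and Hspe1 holds 3, which overlap into a single run of capitals. A promoter was found for 10 of the 12 chaperone genes that rose, and 7 of the 10 held a match, as did 10 of the 18 tested members with a promoter, against 14.5% of all 27025 genes with a promoter. A match describes the sequence and does not show that a factor was bound.

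The ATF4 list also rose, in part. Its members serve amino acid uptake and synthesis and the end of the stress response. Atf5, an ATF4-like factor gene (mm9, chromosome 7, 52067627 to 52072028), had 2986, 4531 and 4752 in the ATO libraries, against 1391, 1293 and 808 in the controls (log2 fold change 1.82, SE 0.26, adjusted p = 0.00107). Ddit3, which encodes the proapoptotic factor CHOP (mm9, chromosome 10, 126727830 to 126733344), had 493, 506 and 703 in the ATO libraries, against 217, 224 and 187 in the controls (log2 fold change 1.42, SE 0.23, adjusted p = 0.00242). Chac1, which encodes a glutathione-degrading enzyme, had 557, 708 and 847 in the ATO libraries, against 272, 340.0 and 161 in the controls (log2 fold change 1.49, SE 0.29, adjusted p = 0.0066). The 3 genes were lasting calls, and in each the groups did not overlap. Atf4 itself had 9776, 9476 and 10452 in the ATO libraries, against 6076, 4983 and 4727 in the controls (log2 fold change 0.92), a call lost without control 3 (adjusted p = 0.1). Ppp1r15a, the phosphatase subunit that restores translation, had 460.2, 346 and 371 in the ATO libraries, against 244, 111 and 179 in the controls (log2 fold change 1.20), a call lost without ATO 1, ATO 2, ATO 3 or control 3 (adjusted p up to 0.0996). Of 22 tested members 7 rose and 1, Aldh1l2, fell (median 0.72, and 0.47 with the length and GC trend removed), and the count of rises was 3 without control 3 and 17 without control 1. Asns, the asparagine synthetase gene and a classic ATF4 target, had 2089, 2373 and 2403 in the ATO libraries, against 1693, 1516 and 1436 in the controls and did not pass (log2 fold change 0.56, adjusted p = 0.0733).

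The element that ATF4 binds together with C/EBP proteins was searched for in the same way, as TGATGNAA or, on the other strand, TTNCATCA. Among 7 risen members with a promoter, 1, Chac1, held it, and among 18 tested members 4 did (Asns, Chac1, Nupr1 and Pck2), against 3.91% of all genes with a promoter. The Chac1 stretch (mm9, chromosome 2, 119176728 to 119176977, plus strand) is shown with the match in capitals, 193 bases before the start.
Chac1: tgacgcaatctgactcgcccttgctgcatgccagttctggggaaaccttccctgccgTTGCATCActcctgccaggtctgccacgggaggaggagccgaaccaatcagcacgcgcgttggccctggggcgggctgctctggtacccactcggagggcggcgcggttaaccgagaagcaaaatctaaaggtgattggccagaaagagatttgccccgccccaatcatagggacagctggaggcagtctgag

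Genes of translation and protein folding in the endoplasmic reticulum rose in smaller number. Of 21 genes of cytoplasmic aminoacyl-tRNA synthetases, which charge tRNAs, 5 rose (median 0.40). Yars had 2750.1, 3695 and 3112 in the ATO libraries, against 1833, 1506 and 1609 in the controls (log2 fold change 0.94), a call lost without ATO 2 or control 3 (adjusted p up to 0.0724), and Cars had 1951, 1998 and 1883 in the ATO libraries, against 933, 1279.6 and 888 in the controls (log2 fold change 0.93), a call lost without ATO 2 or control 3 (adjusted p up to 0.111). The synthetase count was 0 without ATO 2 and 0 without control 3. Of 22 endoplasmic reticulum chaperones 5 rose (median 0.38). Creld2, which encodes a disulfide isomerase of the endoplasmic reticulum, was a lasting call, with 4879, 3969 and 6279.8 in the ATO libraries, against 2347, 1981 and 1613 in the controls (log2 fold change 1.34, SE 0.23, adjusted p = 0.00314). Hspa5, the HSP70 of the endoplasmic reticulum and a central target of the unfolded protein response, had 27456, 18574 and 22599 in the ATO libraries, against 15882, 17816 and 18372 in the controls, and it did not pass (adjusted p = 0.26). The count of this list was 1 without ATO 2, ATO 3 or control 3. None of 35 proteasome subunit genes was called (2 at an unadjusted p under 0.05, 0 with edgeR and 1 with DESeq2), although 34 had a positive fold change, and their median was 0.37 and fell to 0.12 with the trend removed.

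Neither the antioxidant nor the metal list held a gene that rose in limma. Of 33 NRF2 targets and glutathione genes 2 fell and 0 rose (median 0.21, and 0.04 with the trend removed). The falls were 6.06%, near the 6.31% over all tested genes. At an unadjusted p under 0.05 4 were higher, and edgeR called 0 higher and DESeq2 1. Of the 2 that fell, Bach1, a repressor of antioxidant genes, had 718, 686 and 359.8 in the ATO libraries, against 870.4, 1402 and 1167 in the controls, a call lost without ATO 2, ATO 3, control 2 or control 3 (adjusted p up to 0.183). The other, the peroxiredoxin gene Prdx1, had 591, 493 and 918 in the ATO libraries, against 1221, 1098 and 1181 in the controls, a call lost without ATO 1, ATO 2, control 1 or control 3 (adjusted p up to 0.183). Hmox1, the heme oxygenase gene, is a well-known arsenic-induced gene in other cells, and here had 747, 823 and 910.0 in the ATO libraries, against 1214, 1296 and 956 in the controls (log2 fold change -0.48, SE 0.20, adjusted p = 0.143). Its groups did not overlap, with the ATO libraries below the controls, and with the length and GC trend removed it passed as a fall (log2 fold change -0.81, adjusted p = 0.0191). Nqo1, a quinone reductase gene, had 71.1, 60 and 67.8 in the ATO libraries, against 72.2, 77.5 and 73 in the controls, and Srxn1, the sulfiredoxin gene, had 432, 502 and 587 in the ATO libraries, against 409.5, 488 and 412 in the controls, with adjusted p = 0.708 for Nqo1 and 0.524 for Srxn1. The metallothionein gene Mt1, which metals induce, had 11221, 15259.6 and 22865 in the ATO libraries, against 12705, 7193 and 12025 in the controls (log2 fold change 0.61, adjusted p = 0.183), with ATO 3 highest and control 2 lowest. None of 12 listed metallothionein and zinc transporter genes was called with limma or edgeR (1 fell with DESeq2, 2 were lower at an unadjusted p under 0.05, and 1 rose with the length and GC trend removed). The list is not complete, and the zinc transporter genes Slc39a2 and Slc39a13, which it does not hold, rose (log2 fold changes 2.28 and 0.76). Slc39a2 was a lasting call, and the call of Slc39a13 was lost without ATO 1, ATO 2, ATO 3, control 2 or control 3 (adjusted p up to 0.232).

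Genes of arsenic handling gave 1 rise and 1 fall among 13 tested. That is 7.69% in each direction, against 3.01% rises and 6.31% falls over all tested genes. As3mt, which encodes the arsenic methyltransferase, had 216, 183 and 258 in the ATO libraries, against 239, 181 and 255 in the controls (log2 fold change -0.04, SE 0.25). Aqp9, a channel for trivalent arsenic, had 18.3, 18.6 and 11.3 in the ATO libraries, against 21.9, 61.6 and 15 in the controls, and Abcc1, an exporter of glutathione conjugates, had 2244, 2483 and 1465 in the ATO libraries, against 1543, 2004 and 1412 in the controls. Neither passed (adjusted p = 0.317 for Aqp9 and 0.401 for Abcc1). Of 13 tested genes of this list, Slc2a1, a glucose transporter that also carries arsenic, rose (2047, 2403 and 2514 in the ATO libraries, against 1404, 979 and 1160.3 in the controls, log2 fold change 0.98), a call lost without ATO 2 or control 3 (adjusted p up to 0.0655). The drug exporter gene Abcb1b fell (3.05, 2.14 and 0 in the ATO libraries, against 10.5, 21.9 and 22.9 in the controls), a call lost without control 3 (adjusted p = 0.0962). Abcb1b passed the filter on low values through the controls alone, and among the other 12 genes 1 rose and 0 fell.

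**Figure D2:**
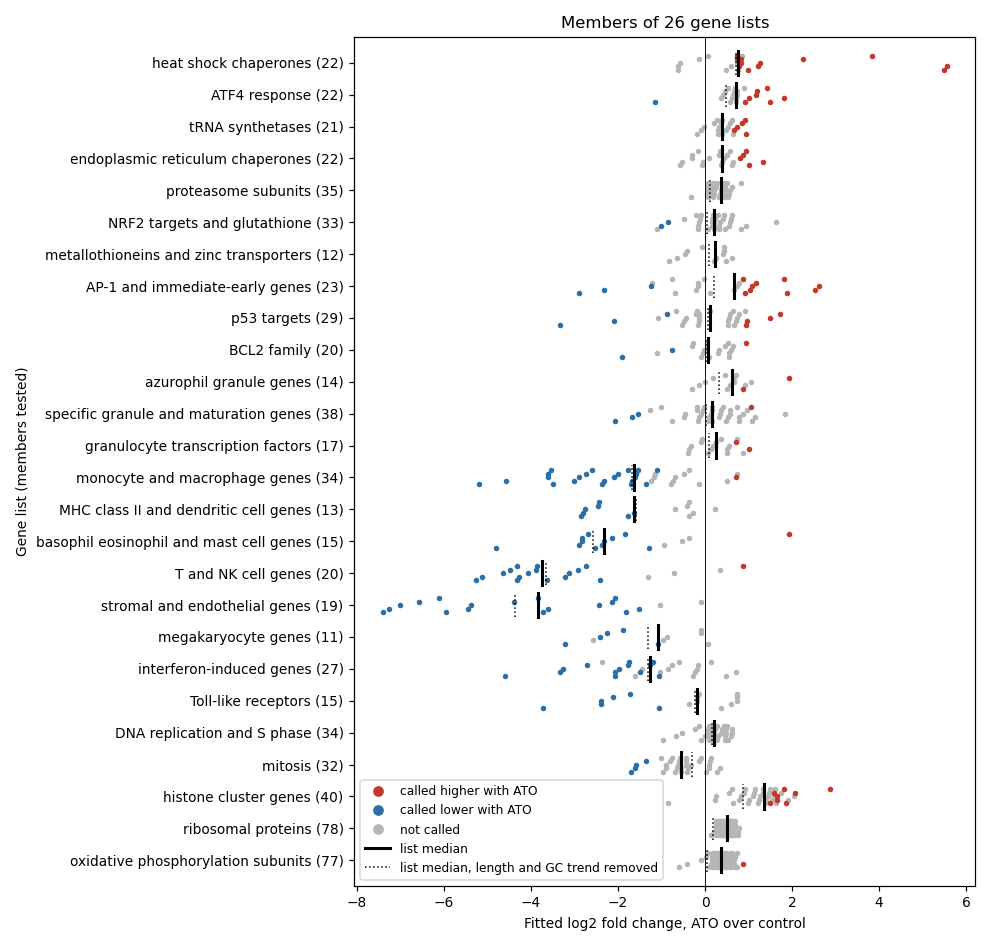
Fitted log2 fold change (ATO over control) of every tested member of 26 gene lists, with called members in red and blue, the list median as a solid bar and the median with the length and GC trend removed as a dotted bar. Heat shock chaperones reach 5.56 at the top, and the T and NK cell and stromal medians lie at -3.75 and -3.85. Without members that passed the filter on low values through the controls alone, these 2 medians are -1.31 and -1.95.

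Of 23 tested immediate-early genes 9 rose and 3 fell (median 0.67). With the length and GC trend removed 6 rose and 4 fell (median 0.20), and DESeq2 gave 10 rises and 5 falls. Fos, an AP-1 subunit gene (mm9, chromosome 12, 86814840 to 86818223), had 1699.7, 945 and 1655 in the ATO libraries, against 237, 170.0 and 284 in the controls (log2 fold change 2.62, SE 0.28, adjusted p = 0.000191). Fosb had 89.4, 46.4 and 71 in the ATO libraries, against 11.4, 5.97 and 20.2 in the controls (log2 fold change 2.52). Jun had 1340.0, 1245 and 1394 in the ATO libraries, against 473, 239.6 and 400.3 in the controls. Jund had 4470.1, 7697 and 6715 in the ATO libraries, against 2060.1, 1722 and 1464 in the controls. These 4 were lasting calls, and the lowest ATO library exceeded the highest control in each. Among the members that fell was Zfp36l1, an RNA-binding protein gene (24.4, 37.1 and 37.1 in the ATO libraries, against 162, 125 and 213 in the controls, log2 fold change -2.32), a lasting call. Without control 3 the list had 4 rises and without ATO 3 it had 5. Of 12 ERK feedback genes 2 rose, of which the phosphatase gene Dusp5 was a lasting call (219, 286 and 205 in the ATO libraries, against 93.1, 101 and 62.5 in the controls, log2 fold change 1.48).

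Inflammatory genes moved in both directions. Of 20 chemokines and chemokine receptors 2 rose and 6 fell, and of 15 cytokine and inflammasome genes 3 rose and 2 fell. Of these, 3 of the chemokine falls passed the filter on low values through the controls alone and 1 of the cytokine rises through the ATO libraries alone. Cxcl10, the gene of an interferon-induced chemokine, had 634, 846 and 897 in the ATO libraries, against 88.4, 310.2 and 102 in the controls (log2 fold change 2.47, SE 0.39, adjusted p = 0.00215), with control 2 above the other controls. Ccl3, another chemokine gene, had 541, 498 and 700.3 in the ATO libraries, against 165, 236 and 201 in the controls (log2 fold change 1.53). Both were lasting calls. The chemokine genes Ccl5, Cxcl12, Cxcl16 and Pf4 and the receptor genes Ccr1 and Cx3cr1 fell. Ptgs2, which encodes the cyclooxygenase COX-2, rose at a low level (26.4, 12.9 and 21 in the ATO libraries, against 0.95, 8.95 and 0 in the controls), a call lost without ATO 2, ATO 3 or control 3 (adjusted p up to 0.139). The cytokine gene Osm rose too (215, 178 and 221 in the ATO libraries, against 96, 130.2 and 82.7 in the controls, log2 fold change 1.01), a call lost without ATO 1, ATO 2, ATO 3 or control 3 (adjusted p up to 0.198). The inflammasome sensor genes Aim2 (96.5, 86.4 and 96.8 in the ATO libraries, against 231, 165 and 347 in the controls) and Nlrp3 (64, 134 and 92 in the ATO libraries, against 170.1, 185 and 391 in the controls) fell, calls lost without ATO 2 or control 3 (adjusted p up to 0.125) for Aim2 and without ATO 1, ATO 3 or control 3 (adjusted p up to 0.232) for Nlrp3. Of 15 NF-kappa-B subunit and feedback genes 2 rose, Nfkbid and Nfkb2, and neither held with the length and GC trend removed (adjusted p = 0.0944 and 0.0613).

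Of 15 tested Toll-like receptor genes 6 fell, 2 of them genes that passed the filter on low values through the controls alone. The median was -0.18, 5 members had a positive fold change, and 3 were higher at an unadjusted p under 0.05. Tlr13, a sensor of bacterial RNA, had 91.4, 97.8 and 100.04 in the ATO libraries, against 304, 403 and 597 in the controls (log2 fold change -2.11, SE 0.28, adjusted p = 0.000716). Tlr8, a sensor of single-stranded RNA, had 18.3, 18.6 and 9.68 in the ATO libraries, against 59.9, 95.4 and 90.6 in the controls, Tlr7 had 112, 114 and 93.6 in the ATO libraries, against 253, 382 and 445 in the controls, and Tlr9, the sensor of unmethylated DNA, had 9.14, 5.71 and 4.84 in the ATO libraries, against 30.4, 35.8 and 41.3 in the controls. These 4 endosomal receptors were lasting calls. Tlr13, Tlr8 and Tlr7 had no overlap between groups, like nearly all called genes. Tlr9 passed the filter through the controls alone and had to differ. Tlr5, the flagellin receptor, fell at a low level (3.05, 10 and 0 in the ATO libraries, against 23.8, 60.6 and 29 in the controls), a call lost without control 3 (adjusted p = 0.0809).

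Among p53 targets 4 of 29 rose and 3 fell (median 0.11). Without Plk2, which passed the filter on low values through the controls alone, 4 of 28 rose and 2 fell (median 0.32). Cdkn1a, the gene of the cyclin-dependent kinase inhibitor p21 (mm9, chromosome 17, 29227924 to 29237667), had 4470.1, 4113 and 4511 in the ATO libraries, against 1385, 1462 and 1152 in the controls (log2 fold change 1.72, SE 0.19, adjusted p = 0.000251), a lasting call. Plk3, a stress-induced kinase gene, rose (103, 133 and 116 in the ATO libraries, against 41.8, 46.7 and 35.2 in the controls), a call lost without ATO 2 or control 3 (adjusted p up to 0.0534). The targets Plk2 (6.1, 6.43 and 4.84 in the ATO libraries, against 81.7, 47.7 and 62.5 in the controls, log2 fold change -3.33) and Trp53inp1 (393, 336 and 226 in the ATO libraries, against 946, 1186 and 2022 in the controls, log2 fold change -2.08) fell, and both were lasting calls. Mdm2, the p53 ubiquitin ligase gene, had 839, 546 and 573 in the ATO libraries, against 479.9, 960.4 and 767 in the controls, and Trp53 itself had 3704, 4331 and 4807 in the ATO libraries, against 3249, 2412 and 2252 in the controls (log2 fold change 0.71, adjusted p = 0.0526). Neither passed. With 1 library left out the list had 1 to 6 rises, the fewest without ATO 2 or control 3.

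Genes of the BCL2 family moved singly. Bmf, the gene of a proapoptotic BH3-only protein, had 65, 87.1 and 80.7 in the ATO libraries, against 391, 175 and 363 in the controls (log2 fold change -1.91, SE 0.32, adjusted p = 0.00312), a lasting fall. Bax, the gene of a pore-forming effector of apoptosis, had 5458, 6878 and 8823 in the ATO libraries, against 4684, 3395 and 2925 in the controls (log2 fold change 0.94), a call lost without ATO 2, ATO 3 or control 3 (adjusted p up to 0.181) and with the trend removed (log2 0.35, adjusted p = 0.0944). Of 20 tested genes 1 rose and 2 fell. Bbc3, Pmaip1 and Mcl1, which encode PUMA, NOXA and an antiapoptotic protein, had log2 fold changes of 0.55, 0.53 and -0.04 and did not pass (adjusted p = 0.138, 0.2 and 0.896). Of 26 genes of PML bodies and SUMO conjugation only the SUMO ligase gene Pias4 was called (1123, 1415 and 1519.9 in the ATO libraries, against 942, 779 and 735 in the controls, log2 fold change 0.72), and that call was lost without ATO 2, ATO 3, control 2 or control 3 (adjusted p up to 0.227). Pml had 995, 1087 and 1019.7 in the ATO libraries, against 1301, 945 and 951 in the controls. The human fusion gene was not measured here.

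The list of azurophil granule and promyelocyte genes had 2 rises among 14 tested (median 0.62, and 0.32 with the trend removed). That is 14.3%, against 3.01% of all tested genes. The 2 are not genes of azurophil granule proteins, and they stand in the basophil and the T and NK cell lists as well. Hdc, the gene of the histamine-forming enzyme, had 1156, 1057 and 910.0 in the ATO libraries, against 243, 302 and 277 in the controls (log2 fold change 1.92, SE 0.21, adjusted p = 0.000233), a lasting call. Nkg7, the gene of a membrane protein of cytotoxic granules, had 1860.2, 1850.1 and 2464 in the ATO libraries, against 1458, 905 and 1035 in the controls (log2 fold change 0.88), a call lost without ATO 2, ATO 3, control 2 or control 3 (adjusted p up to 0.16). Mpo, the myeloperoxidase gene, had 179962, 151402 and 179489 in the ATO libraries, against 256938, 48810.5 and 148594 in the controls, with the ATO values inside the range of the controls, and Elane, the neutrophil elastase gene, had 149005, 167885 and 224157 in the ATO libraries, against 130826, 53702 and 88401 in the controls (log2 fold change 1.06, adjusted p = 0.0721). Of 17 granulocyte transcription factor genes 2 rose (11.8%). Cebpd had 4383, 5717 and 8308 in the ATO libraries, against 3144, 3598 and 2264 in the controls and Gfi1 had 6283, 6815 and 7101 in the ATO libraries, against 4377, 4396 and 3548 in the controls, with log2 fold changes of 1.01 and 0.72, and the calls were lost without ATO 2, ATO 3 or control 3 (adjusted p up to 0.187) for Cebpd and without ATO 1, ATO 2, ATO 3 or control 3 (adjusted p up to 0.216) for Gfi1. Cebpe, the factor gene of late granulocyte maturation, had 2789, 3690.1 and 5171 in the ATO libraries, against 2241, 3067 and 1243 in the controls (log2 fold change 0.88, adjusted p = 0.0903).

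Specific granule and maturation genes rested on control 2. Among 38 tested genes 1 rose and 3 fell with all libraries, whereas 15 rose and 1 fell without control 2. Among the controls 33 of the 38 were highest in control 2, against 39.5% of all tested genes. Ltf, the lactoferrin gene, had 7618, 11506 and 11775 in the ATO libraries, against 2052, 23681 and 2281 in the controls (log2 fold change 1.07, SE 0.68, adjusted p = 0.3). Camp, the cathelicidin gene, had 17273, 24614 and 36286 in the ATO libraries, against 9966, 33494 and 9210.3 in the controls. In both the ATO libraries lay above controls 1 and 3, and in Ltf all lay below control 2. Trem1, a receptor gene of neutrophils and monocytes, did not depend on control 2 and was a lasting rise (1139.9, 1041 and 1029 in the ATO libraries, against 459.9, 472 and 609 in the controls, log2 fold change 1.07, SE 0.20, adjusted p = 0.00616). Lyz1, a lysozyme gene, was a lasting fall (15.2, 28.6 and 46.8 in the ATO libraries, against 99.8, 147 and 107 in the controls, log2 fold change -2.07). The collagenase gene Mmp8 (33.5, 18.6 and 33.9 in the ATO libraries, against 49.4, 203 and 73 in the controls) and the formyl peptide receptor gene Fpr2 (80.3, 179 and 309.8 in the ATO libraries, against 328, 764 and 430.2 in the controls) fell in calls lost without ATO 2, ATO 3, control 2 or control 3 (adjusted p up to 0.151) for Mmp8 and without ATO 1, ATO 2, control 2 or control 3 (adjusted p up to 0.141) for Fpr2. Itgam, the CD11b gene, had 8019, 8817 and 6419 in the ATO libraries, against 6645, 13488 and 7598 in the controls (adjusted p = 0.639).

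**Figure D3:**
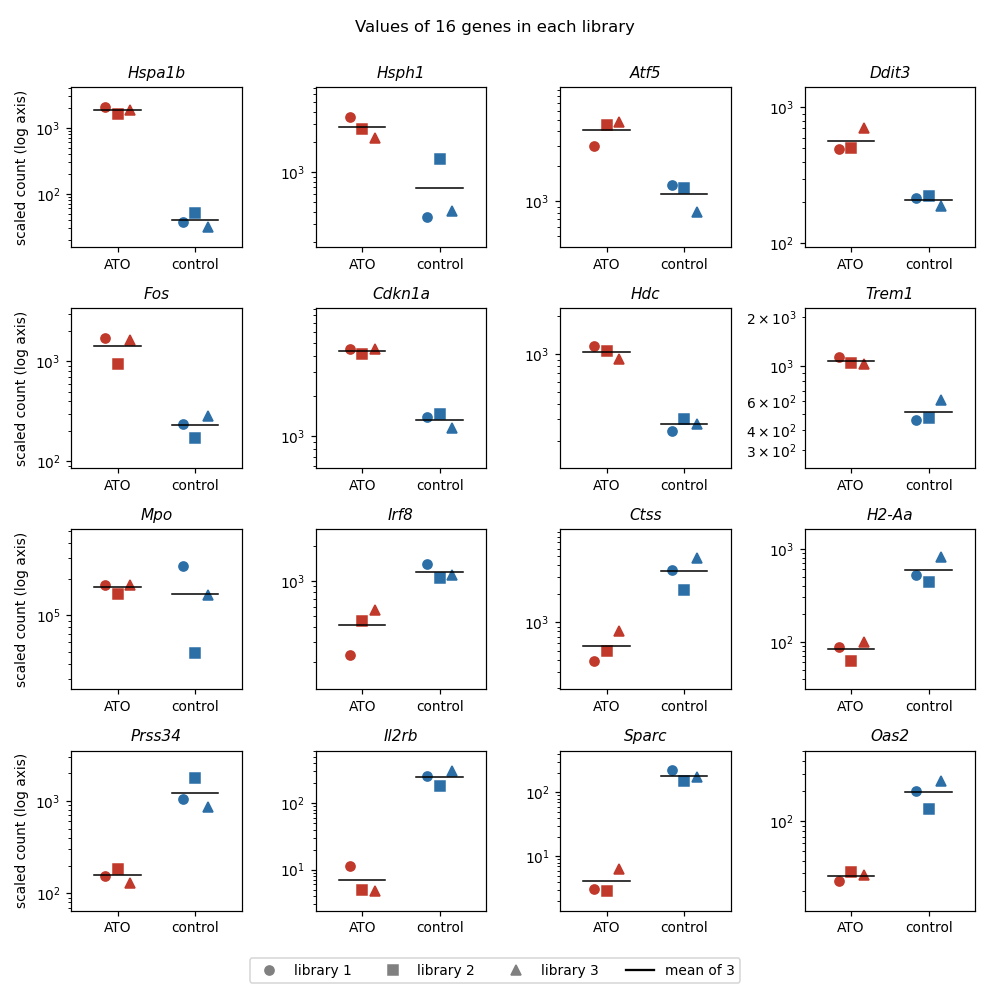
Scaled counts of 16 genes in each library on log axes, ATO left and control right, with library numbers as symbols and the mean of 3 as a bar. The groups are apart in all panels except Mpo, where control 2 lies at 48810.5 and controls 1 and 3 at 256938 and 148594. All genes shown except Mpo were called, and nearly all called genes have groups that lie apart. Sparc passed the filter on low values through the controls alone, so its groups had to be apart.

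Most monocyte and macrophage genes fell. Of 34 tested, 22 fell and 1 rose (median -1.64, and -1.67 with the trend removed), and 18 of the falls were lasting. Without 1 gene that passed the filter through the controls alone, 21 of 33 fell. Mmp12, the macrophage elastase gene, had 162, 93.5 and 165 in the ATO libraries, against 1688, 1211 and 1943 in the controls (log2 fold change -3.54, SE 0.27, adjusted p = 1.83e-05). Lpl, the lipoprotein lipase gene, had 55.9, 45 and 54.9 in the ATO libraries, against 671, 782 and 498 in the controls (log2 fold change -3.62, SE 0.26, adjusted p = 1.35e-05). Fabp4, a fatty acid binding protein gene, had 8.13, 2.86 and 9.68 in the ATO libraries, against 248, 78.5 and 204 in the controls (log2 fold change -4.58, SE 0.52, adjusted p = 0.000317). Mmp12 and Lpl had no overlap between groups. Fabp4 is the gene that passed the filter through the controls alone, so it had to differ. In these bulk samples fewer cells of a type and less RNA per cell cannot be told apart.

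Receptors and factors of the lineage showed the same direction. C1qa, a complement gene of tissue macrophages, had 28.4, 53.6 and 53.2 in the ATO libraries, against 440.0, 168 and 327 in the controls (log2 fold change -2.73). Mertk, a receptor kinase that takes up apoptotic cells, had 19.3, 12.9 and 17.7 in the ATO libraries, against 295, 76.6 and 378 in the controls (log2 fold change -3.60), and Cd36, a scavenger receptor, had 16.3, 2.86 and 4.84 in the ATO libraries, against 300.3, 169 and 296 in the controls (log2 fold change -5.21). In each, control 2 was the lowest control, as it was for 25 of the 34 genes, against 38.7% of all tested genes. Csf1r, the receptor of the macrophage growth factor, had 608, 895 and 936 in the ATO libraries, against 2619, 1472 and 2263 in the controls (log2 fold change -1.37, SE 0.25, adjusted p = 0.00549). Irf8, the gene of a factor that drives monocytic development (mm9, chromosome 8, 123260258 to 123280594), had 232, 456 and 568 in the ATO libraries, against 1396, 1053 and 1132 in the controls (log2 fold change -1.60, SE 0.30, adjusted p = 0.0055), and ATO 3, its highest ATO library, lay below its lowest control. Adgre1, which encodes the F4/80 antigen, was the member that rose (1129, 1183 and 1105 in the ATO libraries, against 650.0, 733 and 693 in the controls, log2 fold change 0.72), a call lost without ATO 1, ATO 2, ATO 3 or control 3 (adjusted p up to 0.153). Klf4, another monocytic factor gene, had 255, 366 and 297 in the ATO libraries, against 444, 539.9 and 482 in the controls and did not pass (log2 fold change -0.69, adjusted p = 0.0708).

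Some lysosomal genes fell. Of 30 tested 7 fell and 1 rose, the median was -0.22 (-0.08 with the trend removed), 12 members had a positive fold change, and the falls numbered 3 without control 3 and 4 without ATO 2 or ATO 3. Ctss, the gene of the protease cathepsin S (mm9, chromosome 3, 95330708 to 95360325), had 388, 501 and 804 in the ATO libraries, against 3579, 2170.4 and 4809 in the controls (log2 fold change -2.63, SE 0.31, adjusted p = 0.000418). Lgmn, the legumain gene, had 145, 175 and 186 in the ATO libraries, against 1657, 586 and 1616 in the controls (log2 fold change -2.79), and Atp6v0d2, a proton pump subunit gene of macrophages and osteoclasts, had 51.8, 106 and 93.6 in the ATO libraries, against 474, 346 and 654 in the controls (log2 fold change -2.56). Neu1, the lysosomal sialidase gene, rose (6558, 9111 and 8552 in the ATO libraries, against 3713, 3949 and 2623 in the controls, log2 fold change 1.24). The 4 were lasting calls. Of 13 MHC class II and dendritic cell genes 7 fell (median -1.64), 1 of them a gene that passed the filter on low values through the controls alone. H2-Aa, an MHC class II chain gene, had 87.4, 61.4 and 100.04 in the ATO libraries, against 524, 441 and 805 in the controls (log2 fold change -2.80, SE 0.29, adjusted p = 0.000175), and reads of the FVB allele were aligned to another strain's sequence. Cd74, the invariant chain gene, had 249, 225 and 282 in the ATO libraries, against 1374, 1099.6 and 1719.8 in the controls (log2 fold change -2.45, SE 0.23, adjusted p = 6.88e-05), and Ciita, the factor that switches on MHC class II genes, had 7.11, 8.57 and 1.61 in the ATO libraries, against 33.3, 55.7 and 22.9 in the controls (log2 fold change -2.75). Flt3, a receptor gene of progenitors and dendritic cells, fell (27.4, 13.6 and 4.84 in the ATO libraries, against 145, 26.8 and 194 in the controls), a call lost without ATO 2, ATO 3 or control 3 (adjusted p up to 0.163).

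Of 27 tested interferon-induced genes 13 fell (median -1.27, and -1.30 with the trend removed). Without 3 that passed the filter on low values through the controls alone, 11 of 24 fell (median -1.12). Oas2, which encodes an oligoadenylate synthetase, had 25.4, 30.7 and 29 in the ATO libraries, against 200.5, 132 and 255 in the controls (log2 fold change -2.72, SE 0.32, adjusted p = 0.000366). Irf7, the factor gene that amplifies the interferon response, had 36.6, 47.1 and 32.3 in the ATO libraries, against 178, 111 and 209 in the controls (log2 fold change -2.06, SE 0.32, adjusted p = 0.00202). Oasl2 had 3.05, 9.28 and 14.5 in the ATO libraries, against 89.3, 62.6 and 82.7 in the controls, and Rtp4 had 3.05, 5 and 6.45 in the ATO libraries, against 61.8, 27.8 and 79.2 in the controls. These were lasting calls. The groups were apart in Oas2, Irf7 and Oasl2, whereas Rtp4 passed the filter through the controls alone and had to differ. Mx1, an antiviral GTPase gene, was seen at 1 read over the 3 ATO libraries and 54 reads over the controls, a control level 50.8 times the ATO level (95% exact interval 8.74 to 2042, counting error only). The list does not hold Cxcl10, an interferon-induced chemokine gene that was a lasting rise (log2 fold change 2.47). Not all members moved. Isg15, which encodes a ubiquitin-like protein, had 42.7, 45 and 64.5 in the ATO libraries, against 51.3, 45.7 and 40.5 in the controls and did not pass (adjusted p = 0.812). The count was 7 without control 3 and 9 without ATO 2. The interferon-stimulated response element, searched for on both strands within 250 bases upstream as GAAA, any 2 bases and GAAA again, was in the promoters of 2 of 8 fallen members that had one (Gbp2 and Oas3), in 10 of 20 tested members and in 3.46% of all genes in the table.

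Of 15 tested genes of basophils, eosinophils and mast cells 11 fell and 1 rose (median -2.31). Of the falls, 4 passed the filter on low values through the controls alone, and among the other 11 members 7 fell and 1 rose (median -1.84). Prss34, a basophil protease gene (mm9, chromosome 17, 25435339 to 25437106), had 154, 184 and 131 in the ATO libraries, against 1037, 1746 and 852 in the controls (log2 fold change -2.89, SE 0.28, adjusted p = 0.000102). Prg2, the eosinophil major basic protein gene, had 122, 84.3 and 153 in the ATO libraries, against 546, 1421 and 562 in the controls (log2 fold change -2.70), and Fcer1a, the IgE receptor chain gene, had 2.03, 6.43 and 9.68 in the ATO libraries, against 31.4, 75.6 and 25.5 in the controls (log2 fold change -2.82). Control 2 was the highest control for 13 of the 15, against 39.5% of all tested genes. The groups were apart for Prss34 and Prg2, whereas Fcer1a passed the filter through the controls alone and had to differ. Gata2, a factor gene of mast cells, basophils and progenitors, had 57.9, 67.1 and 33.9 in the ATO libraries, against 188, 271 and 121 in the controls (log2 fold change -1.84, SE 0.36, adjusted p = 0.00727). The member that rose was Hdc, which granulocytes also express.

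T and NK cell genes fell at low counts. Of 20 tested, 16 fell and 1, Nkg7, rose (median -3.75). Of the falls, 13 passed the filter on low values through the controls alone, and among the other 7 members 3 fell and 1 rose (median -1.31). Il2rb, a receptor chain of interleukins 2 and 15, had 11.2, 5 and 4.84 in the ATO libraries, against 255, 183 and 309 in the controls (log2 fold change -5.12, SE 0.40, adjusted p = 1.83e-05). Gzma, a granzyme gene of killer cells, had 5.08, 4.28 and 3.23 in the ATO libraries, against 147, 57.7 and 177 in the controls (log2 fold change -4.63), and Prf1, the perforin gene, had 4.06, 6.43 and 3.23 in the ATO libraries, against 194, 27.8 and 172 in the controls (log2 fold change -4.32). Ncr1, an NK cell receptor gene, had 0 reads in all ATO libraries and 13.3, 19.9 and 24.6 in the controls, at least 19.4-fold lower with ATO when 3 reads over the ATO libraries are taken as the limit of a count of 0. Ncr1 at that limit left the median at -3.75. Among B lineage genes 3 of 10 fell (3 of 9 without 1 gene that passed through the controls alone). Jchain, which joins antibody chains, had 82.3, 45.7 and 123 in the ATO libraries, against 360.1, 788 and 503 in the controls, Cd22 had 29.5, 28.6 and 9.68 in the ATO libraries, against 192, 90.5 and 155 in the controls and Blnk had 2.03, 5.71 and 14.5 in the ATO libraries, against 95, 53.7 and 83.6 in the controls, and the 3 were lasting calls. Megakaryocyte genes had 5 falls among 11 tested (3 among 9 without those that passed through the controls alone), such as Itga2b (28.4, 67.8 and 58.1 in the ATO libraries, against 228, 311 and 178 in the controls, log2 fold change -2.26). Erythroid genes had 2 among 11, of which Slc4a1, the band 3 gene, was lost without ATO 2, ATO 3, control 2 or control 3 (adjusted p up to 0.149).

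Stromal and endothelial genes had the lowest median of the lists, with 17 of 19 tested called lower (median -3.85) and 14 of the calls lasting. They too were weakly expressed. Of the 19, 13 passed the filter on low values through the controls alone, and among the other 6 members 5 fell (median -1.95). Cxcl12, the chemokine gene of marrow stroma (mm9, chromosome 6, 117118553 to 117131385), had 2.03, 0 and 0 in the ATO libraries, against 156, 165 and 121 in the controls. That is 2 reads over the ATO libraries against 467 over the controls, a control level 220 times the ATO level (95% exact interval 60.4 to 1819, counting error only). Sparc, a matrix protein gene, had 3.05, 2.86 and 6.45 in the ATO libraries, against 225, 148 and 177 in the controls (log2 fold change -5.38, SE 0.41, adjusted p = 1.83e-05), Col1a2, a collagen I chain gene, had 2.03, 1.43 and 3.23 in the ATO libraries, against 204, 118 and 178 in the controls (log2 fold change -5.95), and Igfbp5 had 4.06, 0.714 and 1.61 in the ATO libraries, against 203, 137 and 142 in the controls (log2 fold change -6.13). The proteoglycan gene Bgn had 0 reads with ATO and 86.5, 61.6 and 82.7 in the controls, at least 77.4-fold lower by the same limit. Bgn at that limit left the list median at -3.85. Pecam1, an endothelial adhesion gene that myeloid cells also express, had 306, 318 and 331 in the ATO libraries, against 341, 397 and 291 in the controls and did not pass. In all, the lists of 8 other lineages and stroma held 132 tested genes, of which 82 fell and 3 rose, and these 82 made up 10.9% of all falls and 64 of the 304 lasting falls. Of the 132, 35 passed the filter on low values through the controls alone and had to differ, and among the other 97 genes 49 fell, 36 of them in lasting calls, and 3 rose.

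Marker genes of each cell type, summed over the whole marker list, place these groups on 1 scale. Neutrophil lineage markers summed to 744052, 778103 and 1096370 in ATO 1, 2 and 3 and to 708492, 708501 and 532277 in the controls, with 11 of the 12 in the table. Monocyte and macrophage markers summed to 4790, 6384 and 7038 with ATO and 9020, 4657 and 7420 in controls, so the groups overlapped, although 6 of 8 markers fell and 1 rose. T and NK cell markers summed to 157, 173 and 171 with ATO against 625, 394 and 710, eosinophil, basophil and mast cell markers to 633, 595 and 708 against 2472, 4635 and 2293, and stromal and endothelial markers to 355, 368 and 389 against 1201, 1027 and 1020. Pecam1, which myeloid cells also express, made up most of the stromal sums with ATO but not in the controls. The other stromal markers therefore fell further than these sums show. B cell markers were near 0 in both groups, at 17.3, 25.7 and 17.7 with ATO against 46.6, 63.6 and 28.2, and Ms4a1 and Pax5 were at 0 in all ATO libraries. The globin genes Hba-a1 and Hbb-b1 were at 0 in all 6. The part of other cell types in the falls was not tested.

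**Figure D4:**
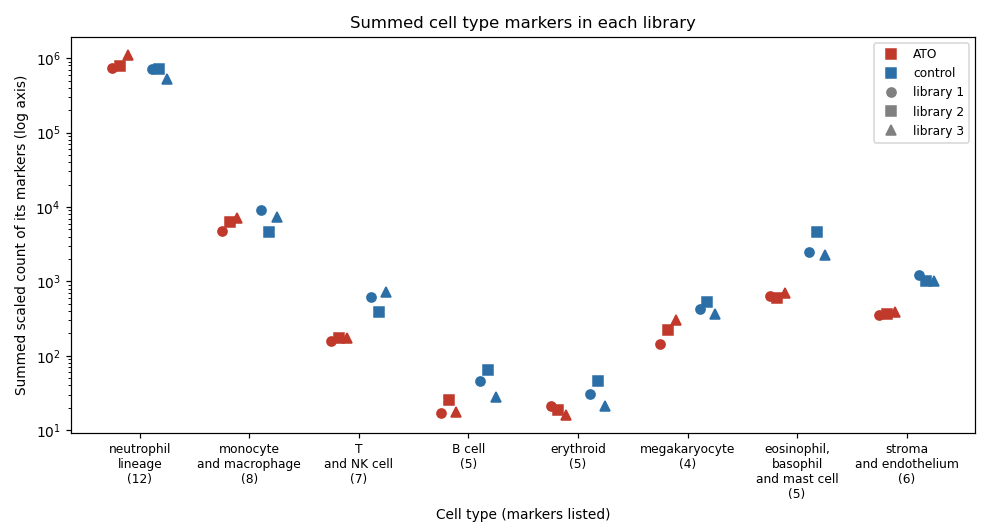
Summed scaled counts of the fixed markers of 8 cell types in each library on a log axis, ATO left of control. Neutrophil lineage markers lie near the top in every library, and the T and NK, eosinophil, basophil and mast cell, and stromal sums are lower in all 3 ATO libraries than in all 3 controls. Pecam1, which myeloid cells also express, makes up most of the stromal sums with ATO.

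Cell cycle lists differed in their counts. Of 34 genes of DNA replication and S phase limma and edgeR called 0 (median 0.20), as did DESeq2, and 3 were higher and 1 lower at an unadjusted p under 0.05. Mcm5, a replicative helicase gene, had 10623, 12684 and 11867 in the ATO libraries, against 9739.8, 8689 and 6913 in the controls (log2 fold change 0.48, adjusted p = 0.146). Of 32 mitosis genes 4 fell (median -0.56, and -0.29 with the trend removed), 7 fell with edgeR and 11 with DESeq2, and 13 were lower at an unadjusted p under 0.05. Mki67, the Ki-67 gene, had 885, 1005 and 326 in the ATO libraries, against 1347, 3525 and 1729 in the controls, and Cenpf, a kinetochore gene, had 105, 90 and 42 in the ATO libraries, against 183, 308 and 249 in the controls. ATO 3 was far below the other ATO libraries in both. Their log2 fold changes were -1.61 and -1.71, and -0.92 and -0.84 with the trend removed (adjusted p = 0.0585 and 0.0153). The calls were lost without ATO 3 or control 3 (adjusted p up to 0.115) for Mki67 and without control 3 (adjusted p = 0.0617) for Cenpf, and the count was 14 without control 1 and 0 without control 3. Cdkn1c, which encodes the inhibitor p57, rose (332, 436 and 416 in the ATO libraries, against 267, 137 and 206 in the controls, log2 fold change 1.00), a call lost without ATO 2, ATO 3, control 2 or control 3 (adjusted p up to 0.143).

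Of 40 tested histone cluster genes 8 rose (median 1.36, and 0.87 with the trend removed). Of the 40, 9 passed the filter on low values through the ATO libraries alone, and among the other 31 members 5 rose (median 1.24). The count over all 40 was 2 without ATO 3, 3 without ATO 2 and 16 without control 1. Hist1h2bg had 67.1, 45 and 66.2 in the ATO libraries, against 14.3, 9.94 and 17.6 in the controls (log2 fold change 2.07, SE 0.38, adjusted p = 0.00515), a lasting call, and Hist1h1e had 57.9, 52.8 and 83.9 in the ATO libraries, against 23.8, 6.96 and 29.9 in the controls (log2 fold change 1.86), a call lost without ATO 2 or ATO 3 (adjusted p up to 0.146). Most such transcripts end without a polyA tail, their levels in polyA libraries are low, and cluster members share sequence, so single levels are uncertain. Their summed level was 2459.6, 2340.6 and 2619 with ATO against 1342, 543 and 1341 in controls.

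Gene families with short transcripts differed in their share of rises, which was 3.01% over all tested genes. Of 78 ribosomal protein genes all had a positive fold change (0.13 to 0.77, median 0.50) and limma and edgeR called 0 (DESeq2 3, unadjusted p 18). Their summed level was highest in ATO 3 (1298540.0, 1497060.0 and 2048330.0 with ATO against 1379910.0, 924248 and 1032180.0 in controls), and the median was 0.17 with the trend removed. Of 77 mitochondrial ribosomal protein genes 7 rose (9.09%, median 0.45, and 0.20 with the trend removed), and the count was 0 without ATO 2, ATO 3 or control 3. Of 77 oxidative phosphorylation genes 1, Cyc1, rose (1.30%, range -0.60 to 0.87, median 0.37, and 0.05 with the trend removed). Ribosome biogenesis genes, whose transcripts are longer (median 2864 bases, against 867 for ribosomal protein genes), had 4 rises among 32 (12.5%) and a median of 0.36, against 0.33 with the trend removed. Their count was 0 without ATO 2, ATO 3 or control 3 and 9 without control 1. Bop1, a gene of ribosomal RNA processing, had 4518, 7058 and 6388 in the ATO libraries, against 3654, 2619.8 and 2585 in the controls (log2 fold change 1.01), a call lost without ATO 2, ATO 3 or control 3 (adjusted p up to 0.116).

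Metabolic genes moved in both directions. Of 27 genes of glycolysis and the pentose phosphate pathway 4 rose, among them the lactate exporter gene Slc16a3 (7633, 11352 and 11732 in the ATO libraries, against 6615, 4182 and 4622 in the controls, log2 fold change 1.00) and the phosphofructokinase gene Pfkp (5436, 5709 and 4737 in the ATO libraries, against 3243, 2698 and 3611 in the controls, log2 fold change 0.74). The calls were lost without ATO 2, ATO 3 or control 3 (adjusted p up to 0.137) for Slc16a3 and without ATO 1, ATO 2, control 2 or control 3 (adjusted p up to 0.144) for Pfkp. Among 24 genes of cholesterol and fatty acid synthesis 3 fell and 1 rose. Insig1, which holds sterol sensors in the endoplasmic reticulum, had 505, 371 and 539 in the ATO libraries, against 773, 869 and 841 in the controls (log2 fold change -0.83), a call lost without ATO 2 or control 3 (adjusted p up to 0.155).

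Regulators and surface markers that the study followed gave 1 rise, Cdkn1a, and 7 falls among 19 tested. Without Sox4, which passed the filter on low values through the controls alone, 6 of 18 fell. The list was chosen by the study in the same model and is no independent evidence of direction. Besides Irf8, Irf7, Tlr7 and Gata2, Itgax, the CD11c gene, fell (128, 149 and 148 in the ATO libraries, against 603, 364 and 504 in the controls, log2 fold change -1.76, SE 0.25, adjusted p = 0.0011), as did Mmp14, a membrane metalloproteinase gene (10.2, 7.85 and 12.9 in the ATO libraries, against 77, 62.6 and 85.3 in the controls, log2 fold change -2.82, SE 0.37, adjusted p = 0.000726), and Sox4 (4.06, 2.14 and 6.45 in the ATO libraries, against 21.9, 32.8 and 15 in the controls), a call lost without ATO 2 (adjusted p = 0.0686). Mef2c, a partner factor of Irf8, had 30.5, 45.7 and 19.4 in the ATO libraries, against 54.2, 67.6 and 98.5 in the controls (log2 fold change -1.23, adjusted p = 0.0648). Ikzf1, Ldb1, Tal1, Gata1, Myb, Ctnnb1 and Kit did not pass (log2 fold changes -0.48, 0.36, 0.32, -1.25, -0.38, -0.14 and -0.38). Cd34, a surface marker of stem and progenitor cells, fell at a low level (4.06, 7.85 and 8.07 in the ATO libraries, against 26.6, 28.8 and 20.2 in the controls), a call lost without ATO 1, ATO 2 or control 3 (adjusted p up to 0.0815). Cd34 passed the filter on low values through the controls alone, so it had to differ.

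In the growth factor receptor, integrin and selectin, and matrix metalloproteinase lists, every called member fell. These lists are not complete, and the integrin genes Itga10 and Itgb4, which they do not hold, rose. The call of Itga10 held with each library left out. That of Itgb4 was lost without ATO 2 or ATO 3 (adjusted p up to 0.0969). Of 19 growth factor receptor genes 4 fell, with Il6st, the shared receptor chain of the interleukin 6 family (45.7, 34.3 and 16.1 in the ATO libraries, against 223, 252 and 194 in the controls, log2 fold change -2.89, SE 0.37, adjusted p = 0.000629), the strongest. Of 24 integrin and selectin genes 6 fell, such as Itgb3 (90.4, 78.5 and 53.2 in the ATO libraries, against 225, 340.0 and 253 in the controls, log2 fold change -1.89). Without 1 gene that passed the filter on low values through the controls alone, 5 of 23 fell. Of 14 matrix metalloproteinase and inhibitor genes 6 fell, 2 of which passed the filter on low values through the controls alone, among them Mmp13, a collagenase gene of bone cells (1.02, 0.714 and 1.61 in the ATO libraries, against 32.3, 20.9 and 30.8 in the controls), and Timp3 (4.06, 2.86 and 1.61 in the ATO libraries, against 58.9, 19.9 and 59.8 in the controls). Of 11 genes of the retinoid response 2 fell and 1 rose. Tgm2, a transglutaminase gene, was a lasting fall (50.8, 50 and 53.2 in the ATO libraries, against 219.5, 113 and 134 in the controls, log2 fold change -1.53, SE 0.31, adjusted p = 0.00874), and Rarg, which encodes a retinoic acid receptor, rose (507, 689 and 695 in the ATO libraries, against 426, 311 and 318 in the controls, log2 fold change 0.84), a call lost without ATO 2, ATO 3, control 2 or control 3 (adjusted p up to 0.196). Of 34 corepressor, Polycomb and chromatin enzyme genes 1 fell, Tet2, which encodes an enzyme of DNA demethylation (234, 231 and 59.7 in the ATO libraries, against 361, 682 and 566 in the controls, log2 fold change -1.81), with ATO 3 far below ATO 1 and 2 and the call lost without control 3 (adjusted p = 0.125). Among 12 Krüppel-like factor genes Klf2 rose and Klf11 and Klf13 fell, 1 of 26 autophagy genes fell (Rb1cc1) and 1 of 15 iron genes fell (Ncoa4), none of them a lasting call, and of 8 NADPH oxidase genes limma called 0 (edgeR 1 lower, DESeq2 1 higher and 1 lower, and 1 in each direction at an unadjusted p under 0.05).

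Several of the largest changes fell outside these lists. Hcar2, which encodes a receptor for niacin, had 359, 683 and 521 in the ATO libraries, against 49.4, 69.6 and 49.3 in the controls. Rgs16, which shortens G protein signals, had 96.5, 129.95 and 95.2 in the ATO libraries, against 13.3, 2.98 and 10.6 in the controls (log2 fold change 3.72, SE 0.49, adjusted p = 0.000794). Tgm3, a transglutaminase gene, had 51.8, 57.8 and 40.3 in the ATO libraries, against 3.8, 3.98 and 5.28 in the controls (log2 fold change 3.38, SE 0.42, adjusted p = 0.000554), and Slc39a2, a zinc importer gene, had 146, 208 and 184 in the ATO libraries, against 56.1, 26.8 and 31.7 in the controls (log2 fold change 2.28, SE 0.33, adjusted p = 0.00136). Angptl2, an angiopoietin-like protein gene, had 353, 487 and 286 in the ATO libraries, against 72.2, 34.8 and 138 in the controls, with control 3 above the other controls. Tppp3, Snai3, Mak and Rfx2 had log2 fold changes of 2.83, 2.60, 2.51 and 2.28, and all of these were lasting rises. Tgm3 passed the filter on low values through the ATO libraries alone, so it had to differ. Crip2 rose too (log2 fold change 2.42) but not with the trend removed (adjusted p = 0.0571). Among falls, Serping1, the C1 inhibitor gene, had 1.02, 1.43 and 0 in the ATO libraries, against 220.5, 91.5 and 139 in the controls. Serping1 passed the filter on low values through the controls alone, so it had to differ. Slfn5, a gene of the Schlafen family, had 8.13, 25.7 and 24.2 in the ATO libraries, against 207, 204 and 361 in the controls (log2 fold change -3.81, SE 0.43, adjusted p = 0.000317), Siglec1, a sialic acid receptor gene of resident macrophages, had 14.2, 28.6 and 16.1 in the ATO libraries, against 353, 109 and 357 in the controls (log2 fold change -3.64, SE 0.46, adjusted p = 0.000571), and Fstl1 had 9.14, 11.4 and 8.07 in the ATO libraries, against 304, 107 and 534 in the controls (log2 fold change -4.71, SE 0.49, adjusted p = 0.000175).

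Transcript length separated the libraries. For each gene the deviation of its log2 value from its mean over the 6 libraries was set against transcript length, known for 11441 of the tested genes. Per doubling of length the deviation changed by 0.018, -0.035 and -0.383 in ATO 1, 2 and 3, and by 0.0099, 0.256 and 0.134 in controls 1, 2 and 3. ATO 3 thus stood far from ATO 1 and 2, and control 2 stood at the other end. The group difference was -0.27 per doubling, which an exact two-sided permutation test over the 6 libraries gave p = 0.2, where the smallest p this design allows is 0.1, and it was -0.14 without ATO 3.

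In 5 groups of genes by length, the median log2 fold change ran 0.31, 0.18, 0.044, -0.13 and -0.41 (shortest to longest), and 0.16, 0.12, 0.027, -0.059 and -0.21 without ATO 3. Rises numbered 105, 124, 71, 34 and 16 over the 5 groups, and falls 93, 86, 119, 163 and 276. With a smooth length and GC trend taken out of each library the rises numbered 43, 62, 74, 73 and 92 and the falls 155, 141, 139, 157 and 169. In total 344 genes rose and 761 fell after this step, among the 11441 genes with a known length. Of the calls before it, 177 of the 358 rises and 566 of the 751 falls remained. Called genes without a known length were not in this fit and count as not remaining. The median transcript length was 2090 bases for risen genes and 3974 for fallen genes, against 2953 for all tested. With the trend removed the median of heat shock genes was 0.72 (0.77 before), of macrophage genes -1.67 (-1.64), of T and NK cell genes -3.67 (-3.75) and of stromal genes -4.36 (-3.85), while that of ribosomal protein genes was 0.17 (0.50) and that of oxidative phosphorylation genes 0.05 (0.37). In the T and NK cell and stromal lists 13 of 20 and 13 of 19 members passed the filter through the controls alone and had to differ. Without those members the medians before trend removal were -1.31 and -1.95.

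**Figure D5:**
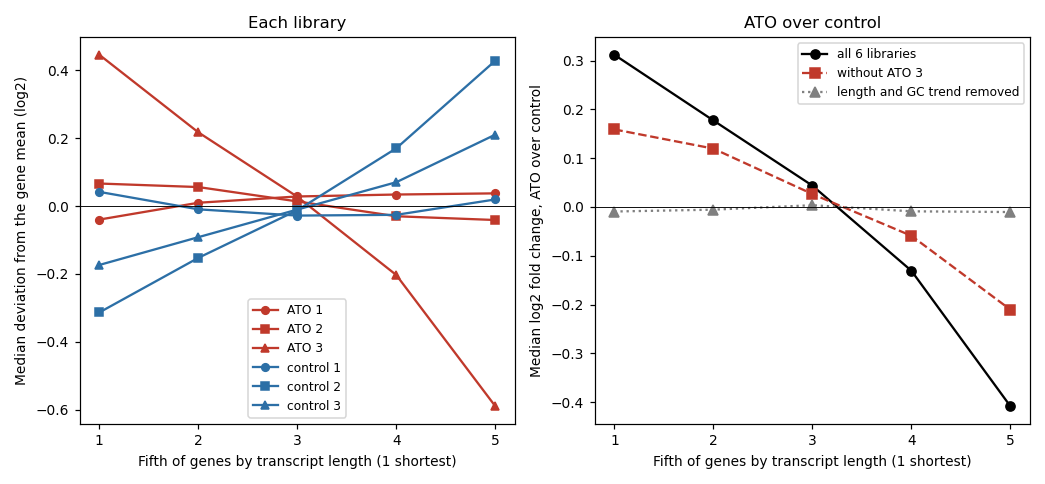
Left, median deviation from the gene mean (log2) in each library over 5 groups of genes by transcript length. Right, median log2 fold change (ATO over control) over the same groups with all 6 libraries, without ATO 3 and with the length and GC trend removed. ATO 3 falls by the most with length, control 2 climbs, and the trend over ATO and control is smaller but still present without ATO 3.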

How the data were processed

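PolyA RNA of the 6 libraries had been quality-checked (FastQC), trimmed (cutadapt), aligned to mm9 (STAR) with unique alignments kept, and counted per gene (HTSeq), per the study's methods and the submitters' processing notes, which also list hg19. The sources used here give no versions, annotation or strand setting. The deposited signal values are counts that the authors divided by a DESeq2 size factor per library. Whole reads were recovered for every value within 0.001. The deposited columns of the authors' comparison (means, fold changes, p-values) were not used, and 27 entries whose names had become dates were left out.

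Values were taken as log2(value + 0.5), so changes of weakly expressed genes are understated. Genes that reached 10 in 3 or more libraries were fitted with limma 3.58.1 (R 4.3.3), with an intensity trend, 3 ATO against 3 control libraries, and Benjamini-Hochberg adjustment over all 11903. A call needed more than a 1.5-fold change besides an adjusted p under 0.05. The scripts were tested on simulated data. Gene coordinates are of mm9, and promoters are from RefSeq (GRCm38.p6). Alternatives were other scalings, filters, pseudocounts and tools (edgeR 4.0.16, DESeq2 1.42.0), each library left out, trend removal by a spline with 3 degrees of freedom, and a replicate block.

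Named were the 15 protein-coding calls with the largest change in each direction among genes averaging at least 100 in the higher group, the 10 largest lasting calls in each direction, up to 4 called members of each of 51 lists (the 2 most abundant where none was called), and all regulators named in the study. The comparison, its lists and this rule were chosen with earlier results of these data known. Other genes given with values (such as Hspe1, Jun, Ccl3, Neu1, C1qa, Prg2, Adgre1, Hmox1 and Mpo) were picked after their values were seen. Intervals and limits cover counting error only. Some members of the lists are counted but not reported by name here.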

Additional observations from a re-analysis of the deposited data

How the results depend on the processing

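With all libraries 358 genes rose and 751 fell. The rises numbered 178 at a fold change over 2, 1145 at an unadjusted p under 0.05, 210 among genes averaging at least 50, 194 without the intensity trend, 610 with DESeq2, 742 with all 9 libraries in the fit, and 174 without ATO 3 and with the length and GC trend removed, the last chosen after seeing the data. The falls numbered 1847 at an unadjusted p under 0.05, 1153 with no filter on low values, 316 among genes averaging at least 50, and 1240 with DESeq2. With 1 library left out rises ranged from 74 (without control 3) to 932 (without control 1) and falls from 318 to 1344 (the same libraries). Other scalings, pseudocounts, equal depth and edgeR kept both counts within 1.5 times. Of 160 named genes that were called, DESeq2 kept all 160 past the threshold, edgeR 159, trend removal 124, the fit without the intensity trend 111, and the fits without ATO 2, ATO 3 or control 3 kept 103, 112 and 94. The cause was not tested.

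Replicate numbers are shared between the groups, and the deviations of same-numbered libraries correlated at -0.40, 0.08 and -0.03. These values gave no sign of pairing, but deviations from the mean of 3 libraries per group cannot exclude it. With the number as a replicate block 414 genes rose and 1093 fell, and 259 and 612 with the length and GC trend also removed. Depth limits the weakly expressed genes, of which several have 0 to 3 reads over the ATO libraries.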
